A study of Mus musculus with 4 samples.

Results

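The cells described here are the lymph node T cells that the authors' annotation labels Treg, the usual short name of regulatory T cells. They were taken as all cells whose library is lymph node and whose label is Treg, which gave 321 of the 4988 lymph node cells and of the 10558 cells in all. That is 6.44% of the lymph node library (exact Clopper-Pearson 95% interval 5.77% to 7.15%). They are set beside the 1873 Cd4-labelled cells of the same library, with its 2788 Cd8-labelled cells as a T cell class that should lack regulatory T cell genes. The sources used here do not say how the labels were drawn. They may rest on the same genes that are compared, so every difference is a description.

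The study profiled single T cells of mice bearing B16 melanoma, a transplantable skin tumor, by 10x Genomics 5′ RNA and receptor sequencing, with 1 RNA and 1 receptor library from tumor and the same from lymph node. Treg- and Cd4-labelled cells share every stated condition. Mice carried subcutaneous B16F10 tumors and received a single intraperitoneal cyclophosphamide dose of 250 mg/kg, followed by an intravenous transfer of TRP1 CD4 T cells, whose transgenic receptor recognises a protein of melanocytes. Tissue was taken 11 days after the transfer. The labels give the strain of all samples as RAG1- BW TRP-1 TCR and the treatment as untreated, and describe all of them as sorted CD4+ and CD4+CD8+ tumor T cells, whereas the titles of the lymph node samples name endogenous cells. RAG1 is needed to assemble endogenous receptors, and the diverse receptors described below go against that strain tag for the lymph node cells. The sources used here do not state the number or age of the mice, any pooling or the gates of the lymph node sort. With 1 RNA library there is no replicate and no test between animals, and all intervals cover counting error only.

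Regulatory T cells are CD4 T cells that restrain other immune cells, and the transcription factor Foxp3 is needed for their identity. They depend on interleukin 2, which they bind through a high-affinity receptor and make little of themselves, and they act through surface molecules such as CTLA-4, through inhibitory cytokines and by activating TGF-beta. In lymph nodes some resemble resting, recirculating T cells, and others carry an effector programme linked to migration into tissues.

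The Treg-labelled cells gave 1903873 UMIs (single counted RNA molecules), with a median of 5225 per cell (770 to 13896) and 1807 genes. Cd4-labelled cells gave 8994187 UMIs, with a median of 4763 and 1439 genes. The median share of a cell's UMIs in ribosomal protein genes was 30.4% for the Treg and 43.5% for the Cd4 label. The tumor and lymph node libraries shared 36 cell barcodes, and 0 of them belonged to lymph node Treg-labelled cells.

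All 5 regulatory T cell markers fitted the label. Foxp3 had 394 CPM (366 to 423; CPM are UMIs scaled to 1000000 in all) in Treg-labelled cells, 3.56 in Cd4-labelled and 2.48 in Cd8-labelled cells. Ikzf2, which encodes Helios, a zinc finger factor of regulatory T cells, had 683 CPM in Treg-labelled, 4.45 in Cd4-labelled and 33.8 in Cd8-labelled cells. Ctla4, the inhibitory receptor that competes with CD28 for its ligands, had 845, 43.0 and 79.6 CPM in the same order of labels. Tnfrsf4, which encodes the costimulatory receptor OX40, had 1236, 27.4 and 18.6 CPM. Ccr8, a chemokine receptor of activated regulatory T cells, had 198, 9.01 and 5.24 CPM, the lowest of the 5 in Treg-labelled cells. In RefSeq's GRCm38.p6 annotation Foxp3 lies on chromosome X, Ikzf2 and Ctla4 on chromosome 1, Tnfrsf4 on chromosome 4 and Ccr8 on chromosome 9.

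The share of Treg-labelled cells with at least 1 UMI was 73.8% for Foxp3 (68.7% to 78.6%), 84.7% for Ikzf2, 86.9% for Ctla4, 86.0% for Tnfrsf4 and 38.0% for Ccr8. In Cd4-labelled cells the shares were 1.17%, 1.33%, 12.5%, 8.86% and 2.56% for the same genes. In Cd8-labelled cells, at a median of 6306 UMIs, 1.08% had a Foxp3 UMI, the share in a T cell class that should lack the gene. With every cell thinned to 2000 UMIs, which left out 12 Treg- and 62 Cd4-labelled cells, Foxp3 was seen in 47.9% of Treg-labelled and 0.497% of Cd4-labelled cells. Among Treg-labelled cells 86 had UMIs of all 5 markers, 118 of 4, 65 of 3, 38 of 2, 13 of 1 and 1 cell of none. At least 3 markers were seen in 83.8% of Treg-labelled, 0.481% of Cd4-labelled and 2.62% of Cd8-labelled cells.

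**Figure D1:**
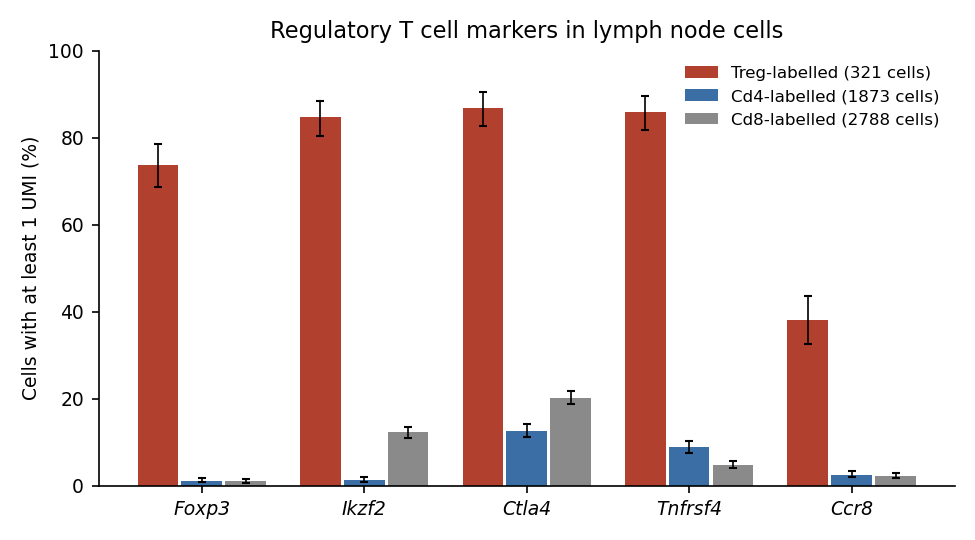
Share of lymph node cells with at least 1 UMI of each of the 5 regulatory T cell markers, for Treg-, Cd4- and Cd8-labelled cells; error bars are exact Clopper-Pearson 95% intervals for counting error only. Ccr8 reached 38.0% of Treg-labelled cells, and the other markers reached 73.8% to 86.9%.

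Foxp3 detection varied with depth, and most cells without a Foxp3 UMI carried other markers. The 107 shallowest Treg-labelled cells had Foxp3 in 63.6% of cells, against 79.4% of the 107 deepest, while its level was 488 CPM in the shallowest and 307 CPM in the deepest. Of the 84 Treg-labelled cells without a Foxp3 UMI, 48 had UMIs of at least 3 of the other 4 markers and 1 had none of them. Ikzf2 stood at 692 CPM in the 237 cells with a Foxp3 UMI and at 653 CPM in the cells without one. The other 3 markers were lower in the cells without a Foxp3 UMI: Ctla4 had 915 CPM with and 609 CPM without, Tnfrsf4 1358 and 826, and Ccr8 222 and 115. Lrrc32, which encodes GARP, the receptor that holds latent TGF-beta on the cell surface, stood at 115 CPM with and 125 CPM without a Foxp3 UMI. Genes outside the markers differed as well. S100a6, a calcium-binding protein gene of activated cells, had 1635 CPM in cells with a Foxp3 UMI and 660 CPM in those without. Tigit, an inhibitory receptor gene, had 291 CPM with and 125 CPM without, and Gzmb, which encodes granzyme B, 210 CPM with and 30.0 CPM without. The Gzmb values rest on few cells, since 13.7% of Treg-labelled cells had it and 5 cells held 55.1% of its UMIs. Ccr7, the receptor that guides T cells into lymph nodes, went the other way, with 395 CPM in cells with a Foxp3 UMI and 655 CPM in cells without.

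Across all genes, 5188 had 20 CPM or more in either label. Of these, 548 (10.6%) were at least 2-fold higher in Treg- than in Cd4-labelled cells, on the log2 scale of CPM + 1, and 73 (1.41%) were at least 2-fold lower. Of the higher genes 344 had under 20 CPM in Cd4-labelled cells, so that they were counted through Treg-labelled cells and could lie only above 0. Among the 4308 genes with 20 CPM or more in Cd4-labelled cells, 204 (4.74%) were higher. The median log2 ratio of all counted genes was 0.31, and 77.7% lay above 0. Among ribosomal protein genes 81 of 85 lay below 0, with a median of −0.42. TMM scaling, which centres on the bulk of genes, shifted the median by −0.36 and gave 313 higher and 166 lower genes, so that 65.3% of the calls were higher in place of 88.2%. Scaling to a total that omits genes of receptors, mitochondria and ribosomal proteins shifted it by −0.30, and 67.0% of the calls were then higher. Counts under TMM are therefore given beside those of each list, and list medians are to be read against 0.31.

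The 12 genes with the highest ratios among those with 50 CPM or more were, in order, Ikzf2, Cd83, Itgae, Areg, Foxp3, Lrrc32, Rln3, Gzmb, Igkc, S100a6, Klrg1 and Il2ra. Cd83, an activation antigen known from dendritic cells and regulatory T cells, had 296 CPM in Treg-labelled and 1.56 in Cd4-labelled cells, a ratio of 190 (95% interval 112 to 350). Itgae encodes CD103, the integrin chain that binds E-cadherin on epithelium. It had 172 CPM in Treg-labelled and 0.778 in Cd4-labelled cells, but also 45.8 CPM in Cd8-labelled cells. Areg encodes amphiregulin, a growth factor that regulatory T cells release in tissue repair, and had 413 CPM in Treg-labelled against 3.78 in Cd4-labelled cells, a ratio of 109 (77.6 to 159). Rln3, which encodes the peptide hormone relaxin 3, had 76.2 CPM in Treg-labelled cells and 0 UMIs in Cd4-labelled cells. Against a floor of 3 UMIs over all Cd4-labelled cells it was at least 228-fold higher, and the exact 95% interval of the ratio, which also covers the error of the Treg count, starts at 183. Klrg1, a lectin receptor of terminally differentiated effector cells, also had 0 UMIs in Cd4-labelled cells and 52.5 CPM in Treg-labelled cells, at least 157-fold higher against the same floor, with an exact interval that starts at 126.

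The 12 genes with the lowest ratios were Pdlim4, Dapl1, Igfbp4, Atp1b1, Rflnb, Tdrp, Ly6c1, Tgfbr3, Themis, Cd40lg, Ranbp10 and Actn1. Pdlim4, a gene for a cytoskeletal adaptor, had 10.5 CPM in Treg-labelled and 130 in Cd4-labelled cells and was 12.3-fold higher in Cd4-labelled cells (7.95 to 20.3). Igfbp4, an insulin-like growth factor binding protein gene of naive T cells, had 297 CPM in Treg-labelled and 1757 in Cd4-labelled cells. It was seen in 24.9% of Treg-labelled and 90.2% of Cd4-labelled cells. Ly6c1, a surface antigen gene, had 78.3 CPM in Treg-labelled against 343 in Cd4-labelled cells. Cd40lg, which encodes the ligand by which helper T cells activate B cells, had 31.5 CPM in Treg-labelled and 121 in Cd4-labelled cells. Dapl1 had 42.0 CPM in Treg-labelled against 290 in Cd4-labelled cells, and 11.7 CPM in the Treg-labelled cells without a Cd8a UMI.

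**Figure D2:**
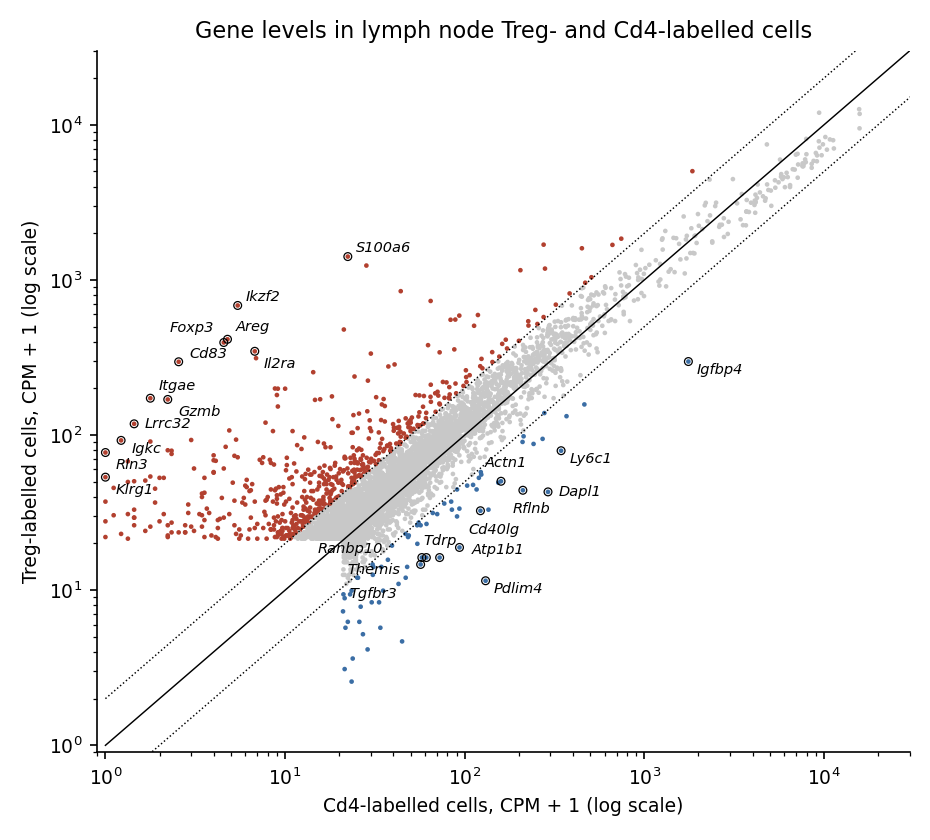
Level of each of the 5188 counted genes in Treg-labelled cells (vertical) and Cd4-labelled cells (horizontal), as CPM + 1 on log axes; the solid line marks equal levels and the dotted lines 2-fold, red marks genes at least 2-fold higher and blue at least 2-fold lower in Treg-labelled cells, and circles mark the 24 named genes. Rln3 and Klrg1 sit at the left edge because Cd4-labelled cells had 0 UMIs of them.

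Of 21 counted transcription factor genes, 10 were at least 2-fold higher and 3 lower in Treg-labelled cells, with a median of 0.94 (7 higher and 4 lower under TMM). Of all counted genes, 10.6% were higher and 1.41% lower. Of the 15 at 20 CPM or more in Cd4-labelled cells, 4 were higher and 3 lower, beside 4.74% higher among all genes at that level. The other higher genes were Foxp3, Ikzf2, Ikzf4, Maf, Rora and Prdm1. They were counted through Treg-labelled cells and could lie only above 0, and Foxp3 and Ikzf2 are also markers. Beside Foxp3 and Ikzf2 the higher genes included other Ikaros family members. Ikzf4, which encodes Eos, a partner of Foxp3 in repression, had 72.5 CPM in Treg-labelled and 4.22 in Cd4-labelled cells, a ratio of 17.2 (11.9 to 25.3). Ikzf3, which encodes Aiolos, had 110 and 28.7 CPM in Treg- and Cd4-labelled cells. Ikzf1, the founding member of the family, was not higher, with 88.8 CPM in Treg-labelled and 140 in Cd4-labelled cells. Maf, Rora and Prdm1 were at least 2-fold higher under both scalings, and Irf4 and Gata3 fell short of it under TMM. Maf, which drives interleukin 10 among other genes, had 106 CPM in Treg-labelled against 3.89 in Cd4-labelled cells, Rora, a nuclear receptor gene of tissue lymphocytes, 83.0 against 3.67, and Prdm1, which encodes Blimp-1, 29.4 against 2.45. Irf4 had a log2 ratio of 1.08 (0.75 under TMM), Gata3 of 1.21 (0.88) and Batf, which was not called, of 0.94 (0.60). The 3 lower genes were Tcf7, Lef1 and Satb1, factors of naive and early T cells. Tcf7 had 131 CPM in Treg-labelled and 368 in Cd4-labelled cells, Lef1 157 and 462, and Satb1 86.7 and 241.

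The interleukin 2 axis split by component. Il2ra, the alpha chain CD25 that gives the receptor its high affinity, had 346 CPM in Treg-labelled against 5.78 in Cd4-labelled cells, a ratio of 59.8 (45.0 to 80.9). Il2rb, the beta chain, had 478 against 20.2 CPM, with 185 CPM in Cd8-labelled cells. Il2rg, the gamma chain shared with other cytokine receptors, differed little, with 683 CPM in Treg-labelled and 518 in Cd4-labelled cells. Stat5a and Stat5b, the factors that carry the signal, had 42.0 and 81.9 CPM in Treg-labelled against 31.7 and 92.2 in Cd4-labelled cells. The feedback genes Cish and Socs2, known targets of STAT5, were among the highest. Cish had 168 CPM in Treg-labelled and 13.7 in Cd4-labelled cells, and Socs2 66.7 and 0.334. Socs1 (206 and 140 CPM) and Socs3 (101 and 111 CPM) were within 2-fold. In all, 5 of the 11 genes of the list were at least 2-fold higher and 0 lower, against 10.6% of all counted genes. The list median was 0.56 (4 higher under TMM, where Jak3 fell short of 2-fold). Of the 8 at 20 CPM or more in Cd4-labelled cells, 2 were higher, beside 4.74% of all genes at that level. Il2ra, Cish and Socs2 were counted through Treg-labelled cells and could lie only above 0. Il2 itself had 1 UMI in Treg-labelled and 2 in Cd4-labelled cells.

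The promoter of Cish is shown because it is a known STAT5 target that was at least 2-fold higher and because it carries the letters of a STAT factor motif. RefSeq promoter windows of 300 bases, from 250 before to 50 after a gene's start (build GRCm38.p6), were found for 13 of the 16 genes in the marker and interleukin 2 lists, 16 windows in all. The motif TTCNNNGAA, which reads the same on both strands, occurred in windows of Cish, Foxp3 and Socs3 only, against 8.30% of all 32851 windows. The Cish window, at chr9:107296409-107296708 on the plus strand, held it at bases 1 and 12 counted from the gene's start, with no overlap, and 0.457% of all windows held 2 or more matches. The second of 2 Foxp3 windows, at chrX:7580233-7580532 on the plus strand, held it 139 bases before its start. Capitals mark the matches.
Cish: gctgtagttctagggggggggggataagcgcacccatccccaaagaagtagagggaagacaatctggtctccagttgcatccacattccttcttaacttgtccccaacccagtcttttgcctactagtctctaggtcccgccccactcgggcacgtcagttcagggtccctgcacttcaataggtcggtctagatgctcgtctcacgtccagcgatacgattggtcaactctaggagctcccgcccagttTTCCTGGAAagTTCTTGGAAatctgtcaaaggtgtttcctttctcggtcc
Foxp3: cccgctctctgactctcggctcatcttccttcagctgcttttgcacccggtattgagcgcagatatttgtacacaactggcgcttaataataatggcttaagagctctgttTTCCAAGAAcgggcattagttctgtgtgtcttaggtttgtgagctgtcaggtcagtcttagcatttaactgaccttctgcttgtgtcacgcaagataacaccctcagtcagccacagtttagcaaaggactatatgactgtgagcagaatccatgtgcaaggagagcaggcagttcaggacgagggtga
The forkhead motif TGTTTAC, searched on both strands, occurred in 0 of the 16 windows and in 3.65% of all windows. A match describes the letters and is no measure of binding.

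Costimulatory receptors of the TNF receptor family were seen in unequal shares of Treg-labelled cells. Tnfrsf18, which encodes GITR, had 553 CPM in Treg-labelled and 82.4 in Cd4-labelled cells and was seen in 85.7% of Treg-labelled cells. Tnfrsf9, which encodes 4-1BB, had 312 against 5.89 CPM, a ratio of 52.9 (39.9 to 71.5), and was seen in 50.8% of Treg-labelled cells. Tnfrsf1b, which encodes TNF receptor 2, had 169 against 14.7 CPM and was seen in 48.6% of them. Icos, a CD28 family receptor, had 593 CPM in Treg-labelled against 117 in Cd4-labelled cells, whereas Cd28 itself had 266 against 296. Tnfrsf1a, which encodes TNF receptor 1, was lower, at 25.2 CPM in Treg-labelled and 53.4 in Cd4-labelled cells (−0.99 on the log2 scale, short of 2-fold, without cells carrying markers of other cell types). The list had 8 higher and 1 lower of 13 counted genes and a median of 1.16 (6 higher and 1 lower under TMM). Of all counted genes, 10.6% were higher and 1.41% lower. Of the 9 at 20 CPM or more in Cd4-labelled cells, 4 were higher and 1 lower. The other members, among them Tnfrsf9 and Tnfrsf1b, were counted through Treg-labelled cells and could lie only above 0. Of the NF-kB genes downstream, 6 of 13 were at least 2-fold higher with a median of 0.92, but 1 was under TMM. That gene was Rel, which encodes c-Rel, a factor needed to form regulatory T cells, with 178 CPM in Treg-labelled and 58.3 in Cd4-labelled cells. Nfkbid, which encodes an atypical inhibitor of NF-kB, had 386 and 161 CPM in Treg- and Cd4-labelled cells, 1.26 on the log2 scale and 0.92 under TMM.

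Inhibitory receptors beside Ctla4 were led by Tigit, with 253 CPM in Treg-labelled and 13.3 in Cd4-labelled cells. Pdcd1, which encodes PD-1, had 65.1 against 7.34 CPM and Cd200 42.5 against 5.34. Lag3 had 27.8 against 10.6 CPM and was seen in 9.66% of Treg-labelled cells. Of 10 counted genes 6 were at least 2-fold higher and 0 lower, with a median of 1.44 (5 higher under TMM), against 10.6% of all counted genes. These counts include Ctla4. Of the 5 at 20 CPM or more in Cd4-labelled cells, 1 was higher, beside 4.74% of all genes at that level. That gene was Ctla4, already named as a marker, so the count adds nothing beyond the markers. The members under 20 CPM in Cd4-labelled cells were counted through Treg-labelled cells and could lie only above 0.

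All 15 counted genes of the suppressive molecules list were at least 2-fold higher in Treg-labelled cells, with a median of 4.77 (13 of 14 counted under TMM), against 10.6% of all counted genes. Only 3 of them reached 20 CPM in Cd4-labelled cells, and the other 12 were counted through Treg-labelled cells and could lie only above 0. The list was drawn up as regulatory T cell genes with earlier results known, so its direction is not independent evidence. Il12a, the partner chain of Ebi3 in interleukin 35, had 0 UMIs in Treg- and in Cd4-labelled cells. TGF-beta handling was covered by several members. Tgfb1 had 319 CPM in Treg-labelled and 155 in Cd4-labelled cells, which fell short of 2-fold under TMM. Lrrc32 had 117 and 0.445 CPM, and Itgb8, an integrin chain that releases active TGF-beta, 29.4 and 0.111. The enzymes that turn extracellular ATP into adenosine were both higher, with Entpd1 (CD39) at 20.5 against 0.334 CPM and Nt5e (CD73) at 70.9 against 6.56. Nrp1, the semaphorin receptor of thymus-derived regulatory T cells, had 91.9 against 2.00 CPM, and Izumo1r, which encodes folate receptor 4, 588 against 92.3. Il10 had 26.8 CPM in Treg-labelled and 1.00 in Cd4-labelled cells and was seen in 18 Treg-labelled cells.

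**Figure D3:**
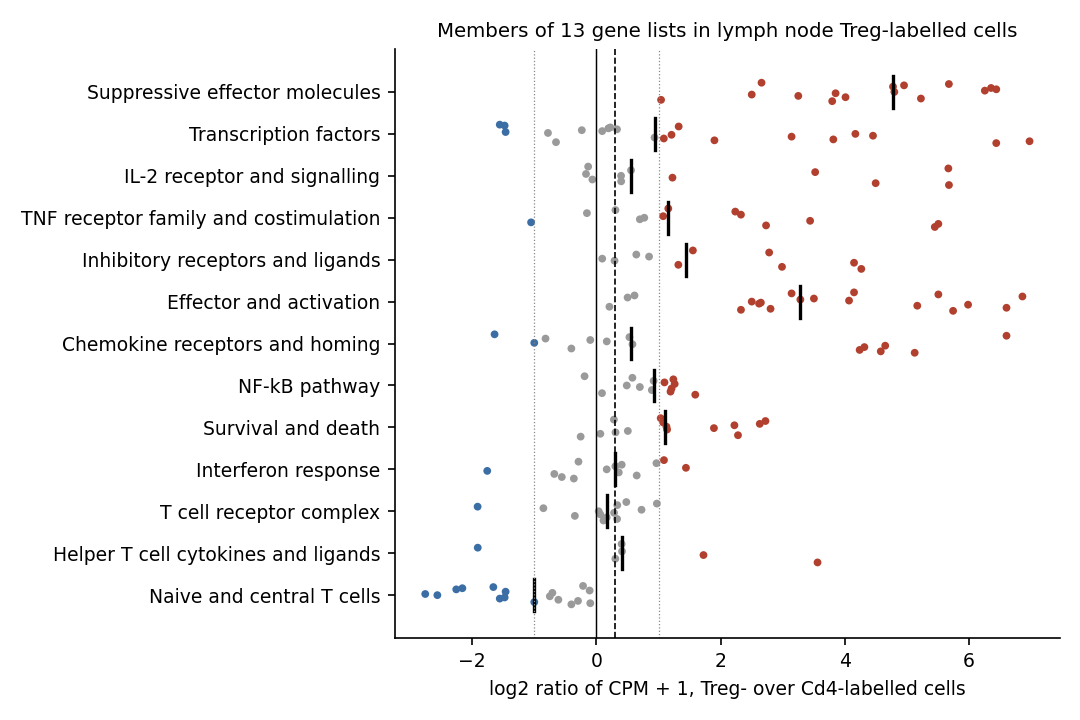
Log2 ratio of CPM + 1, Treg- over Cd4-labelled cells, for each counted member of 13 gene lists; bars mark list medians, the dashed line the median of all counted genes (0.31), the dotted lines 2-fold, red points genes at least 2-fold higher and blue at least 2-fold lower. All suppressive effector molecules lie right of 2-fold, and all naive and central T cell genes lie left of 0.

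Genes of effector and activated T cells were higher as a list, with 16 of 19 counted genes at least 2-fold higher, 0 lower and a median of 3.28 (16 higher under TMM). Of the 9 at 20 CPM or more in Cd4-labelled cells, 6 were higher, beside 4.74% of all genes at that level. This list too was chosen with earlier results of these data known, so its direction is not independent evidence. S100a6 had 1413 CPM in Treg-labelled and 21.3 in Cd4-labelled cells, S100a4 78.8 and 1.22, and Capg, an actin-capping protein gene, 731 and 63.6. Cd44, the hyaluronan receptor of antigen-experienced cells, had 70.4 and 9.23 CPM, and Itgb1, the beta chain of several matrix-binding integrins, 176 and 17.2. Cd69, an early activation antigen, differed by less than 2-fold, with 742 CPM in Treg-labelled and 485 in Cd4-labelled cells.

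Naive and central T cell genes were lower as a list, and all 17 counted members lay below 0. Of these, 9 were at least 2-fold lower (11 under TMM), against 1.41% of all counted genes, and the list median was −1.0. The list was chosen with earlier results of these data known, and it holds genes named above among the lowest, such as Dapl1. Its direction is therefore not independent evidence. Ccr7 was within 2-fold, with 454 CPM in Treg-labelled and 601 in Cd4-labelled cells, and was seen in 50.5% of Treg-labelled and 79.3% of Cd4-labelled cells, and in 37.2% and 59.4% at 2000 UMIs. S1pr1, the receptor by which T cells leave lymph nodes, had 138 and 276 CPM. Il7r, the survival cytokine receptor of naive cells, had 209 and 352 CPM.

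Chemokine receptors for inflamed tissue were seen at low levels. Of 14 counted homing genes 6 were at least 2-fold higher and 2 lower, with a median of 0.56 (5 higher and 3 lower of 13 under TMM). Of all counted genes, 10.6% were higher and 1.41% lower. Of the 8 at 20 CPM or more in Cd4-labelled cells, 0 were higher and 2 lower. All 6 higher genes were thus counted through Treg-labelled cells and could lie only above 0. Ccr4 had 44.1 CPM in Treg-labelled against 0.889 in Cd4-labelled cells, Ccr2 49.4 against 0.445 and Ccr6 22.1 against 0.222. Cxcr3, a receptor of type 1 responses, had 52.0 against 1.11 CPM, with 40.6 CPM in Cd8-labelled cells. Gpr183, an oxysterol receptor that places cells within the node, was lower, with 48.3 CPM in Treg-labelled and 153 in Cd4-labelled cells. Each of Ccr2, Ccr4, Ccr6 and Cxcr3 was seen in 9.35% to 18.4% of Treg-labelled cells.

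The T cell receptor machinery was close to the bulk of genes. The list had a median of 0.16, which became −0.17 under TMM, with 0 higher and 1 lower of 13 genes (2 lower under TMM). Cd3e had 1031 CPM in Treg-labelled and 819 in Cd4-labelled cells, and Lck, the kinase that starts receptor signalling, 646 and 618. The lower gene was Themis, a receptor signalling adaptor, with 15.2 and 60.1 CPM. Of 8 counted early genes of receptor signalling 2 were higher, Nr4a2 and Nr4a3, and 1 of them under TMM. Nr4a2, an orphan nuclear receptor gene, had 153 CPM in Treg-labelled and 34.9 in Cd4-labelled cells.

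Survival genes had 9 of 14 members at least 2-fold higher and 0 lower, with a median of 1.10 (4 higher of 13 under TMM), against 10.6% of all counted genes. Of the 7 at 20 CPM or more in Cd4-labelled cells, 2 were higher, beside 4.74% of all genes at that level. The other members were counted through Treg-labelled cells and could lie only above 0. They included both protective and death-promoting genes. Bcl2l1, which encodes the protective BCL-XL, had 36.8 CPM in Treg-labelled and 6.78 in Cd4-labelled cells, and Bid, which encodes a death-promoting BCL-2 family protein, 24.2 and 5.78. Bcl2, the protective gene of naive cells, had 196 and 234 CPM. Interferon response genes had a median of 0.30, beside 0.31 for all genes, with 2 of 13 higher and 1 lower (median −0.03, 1 higher and 2 lower under TMM). Ifi27l2a, an interferon-induced gene, had 5022 CPM in Treg-labelled and 1849 in Cd4-labelled cells and was seen in 99.7% and 94.4% of them. Glycolysis genes had 1 of 13 higher and a median of 0.40 (0.06 under TMM). Immediate early and stress genes had 3 of 11 higher and a median of 0.62 (2 higher under TMM), led by Atf3, a stress-induced factor gene, with 50.4 CPM in Treg-labelled and 5.11 in Cd4-labelled cells. Of 14 proliferation genes 4 were counted and 2 of them were higher (1 higher and 1 lower of 3 under TMM). Of the 2 at 20 CPM or more in Cd4-labelled cells, 0 were higher. Mki67, the proliferation antigen, was seen in 3.74% of Treg-labelled and 0.534% of Cd4-labelled cells. With cells thinned to 2000 UMIs its shares were 0.647% (0.0785% to 2.32%) and 0.110% (0.0134% to 0.398%), and these intervals overlap. Genes of DNA replication varied. Mcm6, a subunit of the replicative helicase, was seen in 24.3% of Treg-labelled and 8.54% of Cd4-labelled cells, and Pcna, the sliding clamp, in 22.7% and 21.7%. At 2000 UMIs, Mcm6 was seen in 10.0% of Treg-labelled and 4.14% of Cd4-labelled cells. Other helicase subunits were rare at that depth: Mcm2 in 1.94% and 2.37%, Mcm3 in 3.24% and 3.04% and Mcm5 in 1.94% and 0.994%.

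The higher genes differed in how many Treg-labelled cells carried them. Of the 96 list genes at least 2-fold higher, 11 were seen in at least 80% of Treg-labelled cells and 30 in under 20%. Il2rb was seen in 82.6% of Treg-labelled cells, and the 5 cells with most Il2rb UMIs held 6.37% of them. Penk, which encodes the opioid precursor proenkephalin, stood at the other end: 18 Treg-labelled cells (5.61%) had it, and 5 cells held 73.7% of its 171 UMIs. Gzmb was seen in 13.7% of Treg-labelled cells, and 5 cells held 55.1% of its UMIs. Areg was seen in 36.1% of Treg-labelled cells, with up to 68 UMIs in 1 cell. Klrg1 was seen in 37 cells and at most 7 UMIs per cell. Ccl5, a chemokine gene of effector T cells, was seen in 9.97% of Treg-labelled and 1.17% of Cd4-labelled cells while its level was 118 CPM in Treg-labelled and 148 in Cd4-labelled cells, so no order is read from it.

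**Figure D4:**
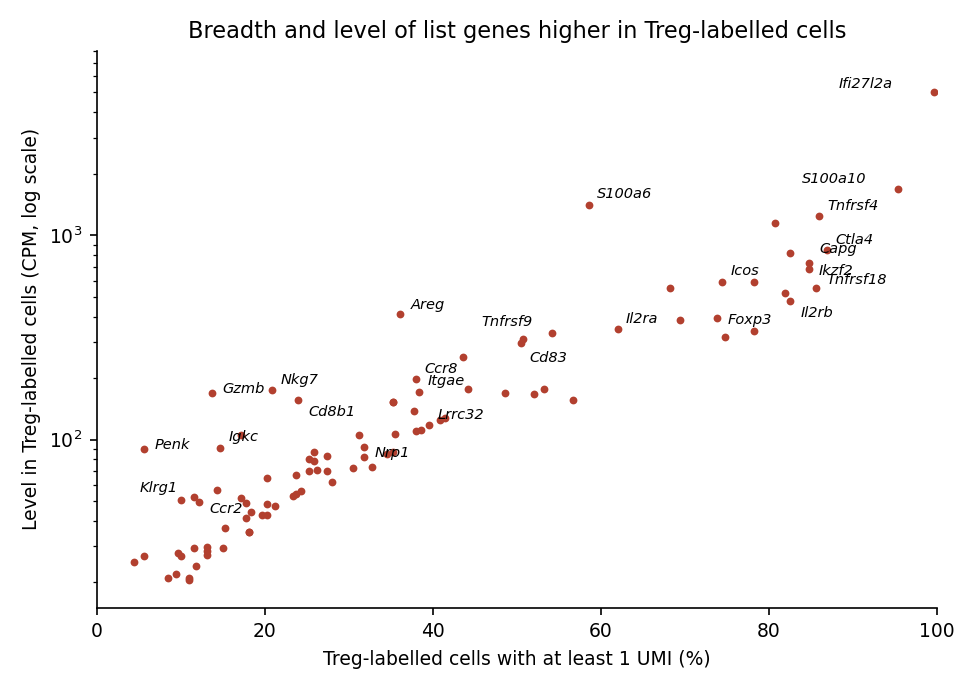
Share of the 321 Treg-labelled cells with at least 1 UMI (horizontal) and level in Treg-labelled cells in CPM on a log axis (vertical) for the 96 list genes at least 2-fold higher than in Cd4-labelled cells. Penk, Gzmb and Areg lie above genes seen in a like share of cells, and S100a10, at 95.3% of cells, lies far to the right.

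Helper cytokines were sparse. Of 6 counted helper genes 2 were higher and 1 lower. Ifng, which encodes interferon gamma, had 25.2 CPM in Treg-labelled and 1.22 in Cd4-labelled cells, from 14 Treg-labelled cells. Lta, which encodes lymphotoxin alpha, had 69.9 and 20.5 CPM. The lower gene was Cd40lg. Il4, Il21 and Csf2 had 0 UMIs in Treg-labelled cells, under a floor of 3 UMIs.

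Markers of other cell types were present in part. Of 7 counted CD8 and cytotoxic genes 5 were higher than in Cd4-labelled cells, with a median of 2.19 and a summed level over the whole list of 906 CPM in Treg-labelled, 324 in Cd4-labelled and 4024 in Cd8-labelled cells. Cd8a UMIs were found in 55 Treg-labelled cells (17.1%, 13.2% to 21.7%), 1.39% of Cd4-labelled and 86.3% of Cd8-labelled cells. A Cd8a or Cd8b1 UMI was found in 84 Treg-labelled cells (26.2%), 38 with and 46 without a Cd4 UMI. Of the rest, 124 had a Cd4 UMI and 113 had no UMI of these genes. The 55 cells with a Cd8a UMI were deeper, with a median of 8617 UMIs against 5063 in the 266 without one. Nkg7, a granule gene, had 533 CPM in the cells with a Cd8a UMI and 65.1 CPM in those without, and Foxp3 250 and 438 CPM. Of the 50 with a receptor call, 26 (52.0%) had 2 or more beta chains, against 21 of 251 (8.37%) of the cells without a Cd8a UMI. A T cell usually has 1 beta chain, and a droplet with 2 cells can show 2. The part of such droplets in these values was not tested. With the cells that had more than 1 beta chain left out (274 Treg- and 1790 Cd4-labelled cells kept), 643 genes were higher and 90 lower, the 5 markers had ratios at least as high as before, and Cd8b1 had a log2 ratio of 1.23, against 2.19 with all cells. Among B cell genes Igkc, the kappa constant region, had 91.4 CPM in 47 Treg-labelled cells and 2 UMIs in Cd4-labelled cells. Cd74, the invariant chain, had 334 CPM in Treg-labelled and 29.0 in Cd4-labelled cells, and Cd79b, a B cell receptor chain, 28.4 and 0.445. Ms4a1, which encodes the B cell antigen CD20, had 1 UMI in Treg-labelled cells. Igkc kept a log2 ratio of 6.31 without the cells carrying markers of other types, against 6.24 with them. Of 11 measured myeloid genes, 6 had 0 UMIs in Treg-labelled cells and 1, Cst3, was counted, and 5 of 6 melanoma genes were at 0. No natural killer gene reached 20 CPM, and Ncr1, Klrb1c and Zbtb16 had 0 UMIs in Treg-labelled cells.

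Receptors of the Treg-labelled cells were diverse, and 0 of them, taken as whole receptors, were found in other cells of the lymph node library. A receptor was called in 301 of 321 Treg-labelled cells (93.8%) and 1793 of 1873 Cd4-labelled cells (95.7%). The 301 cells had 299 distinct receptors, with 2 receptors seen in 2 cells each, and the Cd4-labelled cells had 1789. Compared by each cell's full set of beta chains, without alpha chains, 5 sets were shared with Cd4-labelled and 9 with Cd8-labelled cells. The 47 Treg-labelled cells with 2 or more beta chains could match only a cell with the same set. Sharing of single beta chains was not tested. The mean CDR3 length of the beta chain was 13.6 ± 1.36 residues (SD over 337 chains) in Treg-labelled and 13.8 ± 1.40 (over 1826 chains) in Cd4-labelled cells. The tumor Treg-labelled cells had 2 distinct receptors, and 0 of these were found in lymph node Treg-labelled cells. The number of tumor Treg-labelled cells with a receptor call is not given here, so no diversity or sharing is read from these values.

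Of 24 beta chain variable segments, Trbv12-1, Trbv12-2 and Trbv29 led in a larger share of Treg- than Cd4-labelled cells with intervals that do not overlap. Trbv12-1 was the segment with most UMIs in 42 of the 308 Treg-labelled cells with any Trbv UMI (13.6%, 10.0% to 18.0%), and in 27 of 1771 Cd4-labelled cells (1.52%, 1.01% to 2.21%). In Cd8-labelled cells the share was 8.68%. In Treg-labelled cells without a Cd8a or Cd8b1 UMI it was 37 of 225 (16.4%, 11.9% to 21.9%), and with a Foxp3 UMI and no Cd8 UMI 27 of 169 (16.0%). Trbv12-2, a close relative, led in 4.55% of Treg-labelled (2.51% to 7.51%), 1.64% of Cd4-labelled (1.10% to 2.34%) and 6.16% of Cd8-labelled cells, and reads could be split between these related segments. Trbv29 led in 4.22% of Treg-labelled (2.27% to 7.11%), 1.36% of Cd4-labelled (0.870% to 2.01%) and 7.44% of Cd8-labelled cells. In Treg-labelled cells without a Cd8a or Cd8b1 UMI the shares were 4.0% for Trbv12-2 (1.85% to 7.46%) and 3.56% for Trbv29 (1.55% to 6.89%), and both intervals then overlap those of Cd4-labelled cells. Trbv13-2, the most frequent segment in Cd4-labelled cells, led in 9.42% of Treg-labelled (6.40% to 13.2%) and 12.5% of Cd4-labelled cells, and these intervals overlap. These contrasts were chosen after the values of all 24 segments were seen.

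**Figure D5:**
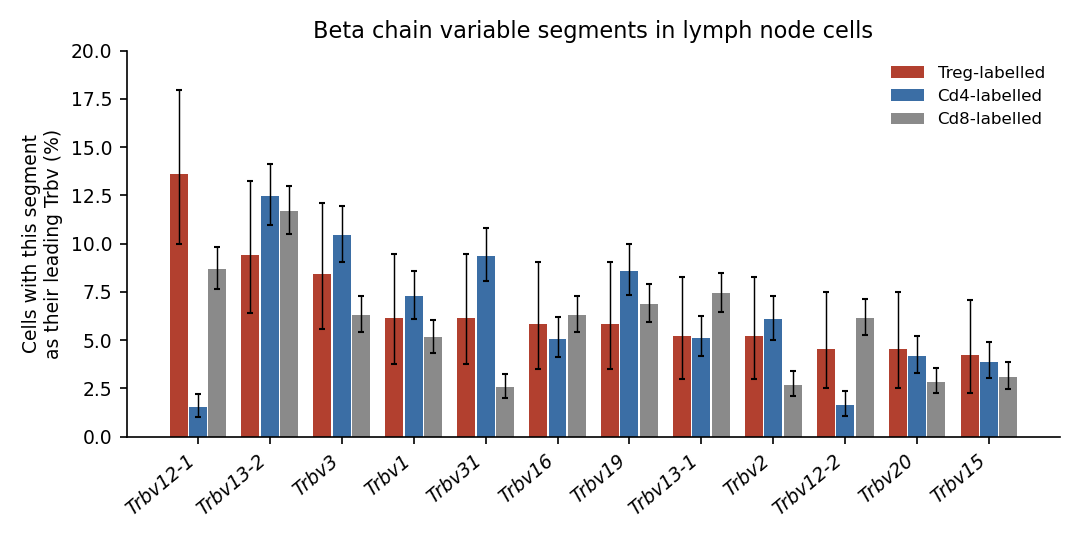
Share of lymph node cells in which each of 12 beta chain variable segments had the most UMIs, for Treg-, Cd4- and Cd8-labelled cells, in order of their share in Treg-labelled cells; error bars are exact Clopper-Pearson 95% intervals for counting error only. Trbv12-1 led in 13.6% of Treg-labelled and 1.52% of Cd4-labelled cells.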

How the data were processed

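Single-cell RNA and receptor libraries (10x Genomics 5′ chemistry) were processed with Cell Ranger 3.1.0 and mm10, per the submitters' processing notes. The authors deposited raw UMI counts of 14721 genes and an annotation with other values per cell (library, label, clonotype, CDR3 sequences). The sources used here do not state the authors' filters. No cell had more than 2997 genes.

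Counts were summed per label and scaled to CPM. Genes with 20 CPM in either label were compared by log2 ratio of CPM + 1 and called at 2-fold, leaving out receptor segments. Intervals at 95% are exact (Poisson, conditional for ratios, Clopper-Pearson), computed with scipy 1.17.1. TMM came from edgeR 4.0.16. On counts simulated from these libraries with counting error alone and 200 well-expressed genes changed 3-fold or 4-fold, the 2-fold rule called 100% of them and 0.0474% of 4217 unchanged genes. Named genes were the 12 highest and 12 lowest ratios at 50 CPM or more (omitting Xist, Y-linked and predicted genes, genes of mitochondria and ribosomal proteins, and receptor segments), the markers, and members of 28 lists with 310 genes, 298 of them in the table. Of all genes in the table, 92.0% matched the RefSeq table by symbol. The members and lists were chosen with earlier results of these data known. Doublets were not removed: scrublet (scanpy 1.11.5) called 11 of 4988 lymph node cells (0.221%), too few to have worked. Some genes are not reported here.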

Additional observations from a re-analysis of the deposited data

How the results depend on the processing

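No replicate could be left out, and no paired analysis was possible because each tissue has 1 RNA library. Higher and lower genes numbered 313 and 166 under TMM, 475 and 234 with the total that omits genes of receptors, mitochondria and ribosomal proteins, 746 and 113 at 2000 UMIs per cell, 368 and 46 with a pseudocount of 10, 1615 and 332 with no CPM minimum, and 290 and 40 at a minimum of 50. In the other settings (mean of each cell's CPM, cells defined by Foxp3 UMIs, without cells with markers of other types, without cycling cells, and, chosen after seeing the data, without cells with more than 1 beta chain) both counts stayed within 1.5 times. The ratios of the 24 named genes kept their direction in all 216 recomputations, and 44 moved beyond their counting interval. Of 239 list medians 19 moved by over 1.5-fold. The proliferation median (4 counted genes) was 0.66, and −0.52 under TMM, −0.12 with the other total, −0.35 by cell means, −0.16 with Foxp3-defined cells, −0.25 without cells with other markers and −0.14 without cycling cells. The type 2 helper median (3 genes) was 1.21, and 2.60 with the other total, 2.87 thinned, 2.75 with Foxp3-defined cells and 2.56 at a minimum of 5 CPM. The CD8 and cytotoxic median was 1.41 with the other total and 1.26 without cells with other markers, the type 1 helper median 1.14 thinned, and the homing median 2.38 at 5 CPM. With a pseudocount of 10 the medians were 2.45 for suppressive molecules, 2.64 for effector, 1.65 for type 17, 1.78 for follicular and 2.51 for B cell genes. At 2000 UMIs the marker shares in Treg-labelled cells were 47.9% for Foxp3, 63.4% for Ikzf2, 64.1% for Ctla4, 67.0% for Tnfrsf4 and 23.9% for Ccr8. Compared by each cell's full set of beta chains, 5 sets were shared with Cd4-labelled cells, in place of 0 whole receptors. Fewer genes tested accounts for the counts at 50 CPM, and the cause of the other shifts was not tested. Leaving out called doublets was not run, since 0 Treg- and 0 Cd4-labelled cells were called.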

Other observations

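The tumor library held 19 Treg-labelled cells with 88799 UMIs, all with at least 3 of the 5 markers. Their values stand beside those of the 321 lymph node cells, and tissue, library and cell origin cannot be told apart. Foxp3 had 394 CPM in lymph node and 664 CPM in tumor Treg-labelled cells. Lag3 had 27.8 CPM in lymph node and 1115 in tumor, Gzmb 169 and 1081, Tnfrsf9 312 and 1757, and Klrg1 52.5 and 552. Ccr7 had 454 CPM in lymph node and 67.6 CPM in tumor, where 3 cells had it, and Areg 413 and 90.1.

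Lists of helper programmes held few counted genes. Follicular genes had 3 of 5 higher in lymph node Treg- than Cd4-labelled cells, while Sh2d1a, a signalling adaptor gene, was just short of 2-fold at 192 and 96.1 CPM. Type 1 genes had 3 of 5 higher, with Il18r1, the interleukin 18 receptor chain, at 48.3 and 12.8 CPM. Of 6 measured type 17 genes 3 were counted, all through their level in Treg-labelled cells, so their direction was fixed by the CPM minimum. One of them, Ahr, the aryl hydrocarbon receptor gene, had 29.9 and 3.89 CPM. Of type 2 genes 2 of 3 were higher. Among genes at 20 CPM or more in Cd4-labelled cells, 1 of 3 follicular, 0 of 2 type 1 and 1 of 2 type 2 genes were higher. Il1rl1, the interleukin 33 receptor gene, had 17.3 and 0.222 CPM, under the minimum.

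Some Cd4-labelled cells carried regulatory T cell transcripts, with UMIs of 1 of the 5 markers in 366 of 1873 cells and of at least 2 in 59. A Foxp3 UMI was found in 22 Cd4-labelled cells (1.17%), 5 of which had at least 3 markers. These 22 had Ccr8 and S100a6 in 0 cells, Ikzf2 in 3 and Ccr7 in 18. A Cd44 UMI was found in 71 Cd4-labelled cells (3.79%), of which 1 had a Foxp3 UMI and 5 had S100a6.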
